A study of Mus musculus with 12 samples.

Results

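The collagen genes are the 44 rows, of 25124 in the table of raw counts, whose symbol has the form Col, a type number, the letter a and a chain number. They fall into 11 fibrillar, 8 basement membrane and 25 other collagens, and all 44 passed the filter on low counts. They were measured by RNA sequencing of mouse brain 28 days after middle cerebral artery occlusion (MCAo), a blockage that models ischemic stroke. The series addressed the part of dickkopf-1 (DKK1), an inhibitor of Wnt signalling that cells secrete, after stroke. The DKK1 mice carried 3 alleles: an insertion at Hprt (tetO-Dkk1) by which Dkk1 is switched on, an insertion at Gt(ROSA)26Sor (rtTA,EGFP) that supplies the doxycycline-dependent activator, and the reporter Tg(TCF/Lef1-lacZ). The other animals were wild type (WT, C57BL6/J). Every animal had MCAo and doxycycline at 200 mg/kg, with induction 3 days after MCAo. The 4 groups were DKK1 ipsilateral (lesioned hemisphere), DKK1 contralateral (intact hemisphere), WT ipsilateral and WT contralateral, with 3 libraries each. No group carried the transgenes without doxycycline or went without MCAo, the labels give neither age nor sex, and the cells in which the rtTA allele is active are not named. Nothing in the labels ties a library to its own animal, so a p-value here measures only how far these libraries spread, which may be technical.

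Collagens are secreted or membrane-bound proteins of 3 chains wound into a triple helix. Fibrillar collagens assemble into the cross-linked fibres that give skin, tendon, bone and scars their strength. Type IV chains form the sheet-like network of basement membranes, the layers on which endothelial and epithelial cells sit, and the remaining types decorate fibres, form beaded filaments or span the cell membrane. Healthy brain tissue holds few fibres, and its collagen lies mainly in the basement membranes of vessels, in the meninges and in the choroid plexus. After injury, fibroblasts and cells of the vessel wall deposit a collagen-rich scar around the lesion.

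Total counts were between 21209920 and 26911840 per library. Dkk1 had 32, 7 and 44 counts in the DKK1 ipsilateral libraries and 13, 5 and 4 in the DKK1 contralateral libraries, against 0 in each of the 6 WT libraries. Markers of neurons, the cells that define the tissue, summed to between 3400 and 5221 CPM (counts scaled to a common library total) in all 12 libraries. One library stood apart from its group: on the first principal component, which held 73.8% of the variance, the DKK1 ipsilateral libraries lay at -62.8, -79.2 and -83.8, and WT ipsilateral 1, at -70.9, was within their range, whereas WT ipsilateral 2 and 3 were at -29.2 and -37.1. WT contralateral 1 was at 41.2, and WT contralateral 2 and 3 at 72.6 and 63.3. Among the collagens, WT ipsilateral 1 was above both other libraries of its group for 33 of 44 genes, and WT contralateral 1 for 31 of 44. The count columns of the other 11 libraries have names with an added ending, which the one of WT ipsilateral 1 does not have; what the ending marks is not given in the sources used here. Values that rest on these libraries are given with and without them.

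Levels are given as CPM per kilobase, over the length of the listed transcript and after TMM scaling, so that genes of different length can be set side by side. The summed level of all 44 collagens was 344, 415 and 411 in the DKK1 ipsilateral libraries, against 199, 218 and 197 in the DKK1 contralateral libraries. It was 421, 276 and 268 in the WT ipsilateral libraries, against 211, 197 and 207 in the WT contralateral libraries. Every lesioned hemisphere was above every intact one, and WT ipsilateral 1 was the highest of all 12 libraries. In bulk tissue, fewer cells of a type and less RNA per cell cannot be told apart.

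The lesioned hemisphere held a different mix of classes. The fibrillar genes made up 34.1%, 36.5% and 35.3% of the summed collagen level in the DKK1 ipsilateral libraries, against 20.9%, 19.5% and 18.4% in the DKK1 contralateral libraries. They made up 38.7%, 27.0% and 27.6% in the WT ipsilateral libraries, against 23.6%, 18.1% and 18.2% in the WT contralateral libraries. The basement membrane class took 20.02% to 22.6% in DKK1 ipsilateral, 20.4% to 21.5% in DKK1 contralateral, 18.9% to 25.1% in WT ipsilateral and 21.6% to 22.3% in WT contralateral libraries. The other collagens took 42.1% to 45.7% in DKK1 ipsilateral, against 58.1% to 61.1% in DKK1 contralateral libraries, and 42.3% to 50.8% in WT ipsilateral, against 54.7% to 60.4% in WT contralateral libraries. The summed level of the other collagens was higher in the lesioned hemisphere, without overlap within a genotype. It was 157 to 180 in DKK1 ipsilateral, against 116 to 128 in DKK1 contralateral libraries. In WT mice it was 127 to 178 in ipsilateral, against 116 to 123 in contralateral libraries. These shares and sums are descriptions and carry no test.

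**Figure D1:**
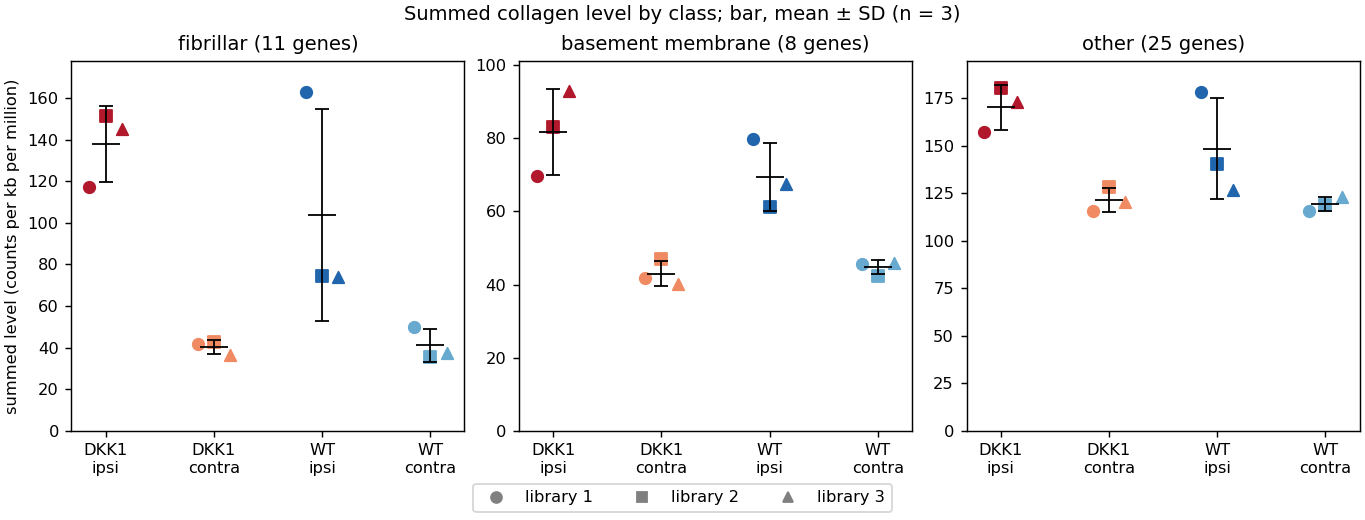
Summed level of the fibrillar, basement membrane and other collagens (CPM per kilobase, linear axis from 0) in each library of the 4 groups, with DKK1 ipsilateral first, then DKK1 contralateral, WT ipsilateral and WT contralateral. Symbols mark the library number and bars the mean ± SD of 3 libraries. The fibrillar sum was 117 to 151 in DKK1 ipsilateral against 36.3 to 42.5 in DKK1 contralateral libraries, and 163 in WT ipsilateral 1 against 74.6 and 74.1 in the other WT ipsilateral libraries.

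By mean level over the 12 libraries, 8 collagens lay at 10 or above, 25 between 1 and 10, and 11 below 1. Col6a1, a chain of the beaded type VI filaments, had the highest mean in every group, at 53.1 ± 4.21 in DKK1 ipsilateral, 50.6 ± 4.28 in DKK1 contralateral, 45.1 ± 3.51 in WT ipsilateral and 48.1 ± 5.79 in WT contralateral libraries (SD, n = 3 each). Below it the order differed between hemispheres. In the intact hemispheres the next were Col4a2 and Col4a1, the chains of the common type IV network, with means of 19.7 and 17.5 in DKK1 contralateral and 19.9 and 18.3 in WT contralateral libraries, and the libraries of these neighbours overlapped in both groups. In the lesioned hemispheres Col1a2, a chain of the fibre-forming type I collagen, had the second highest mean, at 44.9 ± 8.54 in DKK1 ipsilateral and 29.0 ± 17.6 in WT ipsilateral libraries (SD, n = 3 each). The libraries of Col6a1 and Col1a2 overlapped in both lesioned groups. In WT mice the second place of Col1a2 rested on WT ipsilateral 1, at 49.3, where it was above Col6a1, at 48.3. In WT ipsilateral 2 and 3 Col1a2, at 19.9 and 17.7, was below Col4a1, at 22.6 and 24.7, and Col4a2, at 20.3 and 21.7.

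**Figure D2:**
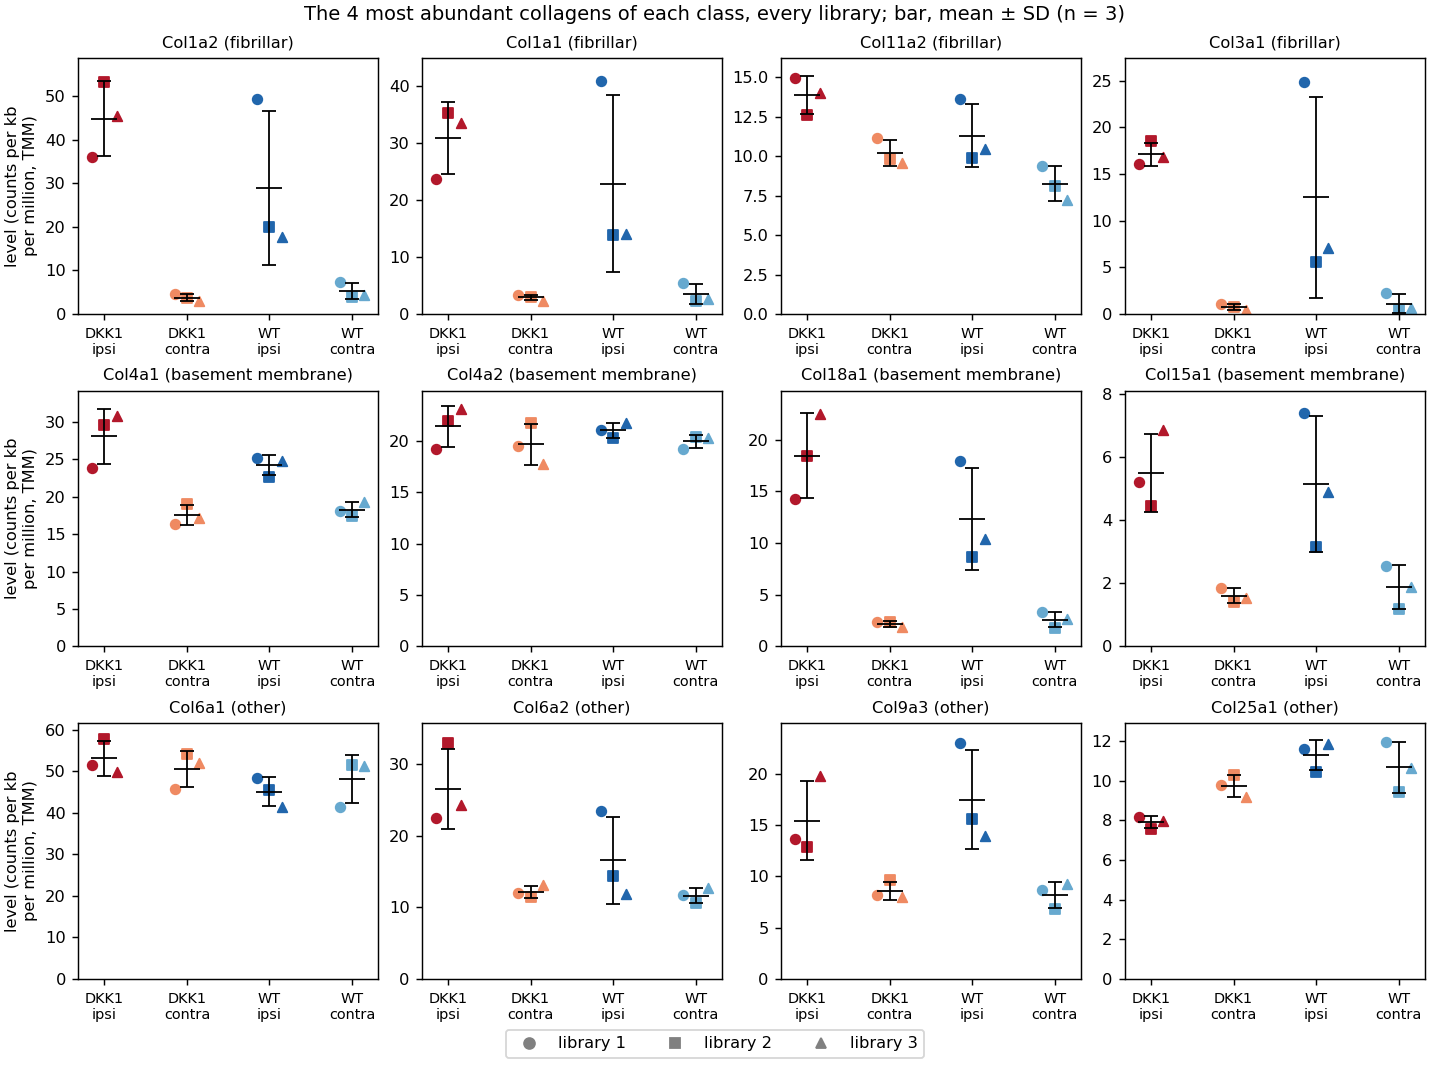
Level (CPM per kilobase, linear axes from 0) of the 4 collagens with the highest mean level in each class, in every library, with DKK1 ipsilateral first, then DKK1 contralateral, WT ipsilateral and WT contralateral. Symbols mark the library number and bars the mean ± SD of 3 libraries. Col1a2, Col1a1 and Col3a1 were higher in all 6 lesioned than in all 6 intact libraries, Col6a1 and Col4a2 overlapped between hemispheres, and WT ipsilateral 1 lay above the other WT ipsilateral libraries for Col1a2, Col1a1 and Col3a1.

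The stretches before the start sites of 4 collagens are shown because these genes mark the ends of the lesion response: Col3a1, Col1a2 and Col18a1 had 3 of the 4 largest rises in DKK1 mice and Col24a1 the largest fall. Each is the 250 bases that precede the start site, printed 5′ to 3′ along the gene's strand, from RefSeq (GRCm38.p6). Capitals mark matches, on either strand, to the CCAAT box (CCAAT), the GC box (GGGCGG), the TATA box (TATAAA) and the AP-1 site (TGANTCA); no motif contains another. The windows are chr6:4505368-4505617 (plus strand) for Col1a2, chr1:45311288-45311537 (plus) for Col3a1, chr10:77113706-77113955 (minus) for Col18a1 and chr3:145292222-145292471 (plus) for Col24a1.
Col1a2: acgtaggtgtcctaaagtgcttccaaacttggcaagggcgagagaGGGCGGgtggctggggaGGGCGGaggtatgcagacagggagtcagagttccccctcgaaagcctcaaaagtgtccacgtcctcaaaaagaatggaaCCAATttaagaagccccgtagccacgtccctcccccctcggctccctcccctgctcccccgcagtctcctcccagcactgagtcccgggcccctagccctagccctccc
Col3a1: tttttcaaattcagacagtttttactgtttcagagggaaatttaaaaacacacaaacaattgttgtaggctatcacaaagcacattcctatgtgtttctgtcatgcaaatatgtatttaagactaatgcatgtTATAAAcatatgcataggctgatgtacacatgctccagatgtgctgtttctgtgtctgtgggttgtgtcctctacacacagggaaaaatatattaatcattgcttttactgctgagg
Col18a1: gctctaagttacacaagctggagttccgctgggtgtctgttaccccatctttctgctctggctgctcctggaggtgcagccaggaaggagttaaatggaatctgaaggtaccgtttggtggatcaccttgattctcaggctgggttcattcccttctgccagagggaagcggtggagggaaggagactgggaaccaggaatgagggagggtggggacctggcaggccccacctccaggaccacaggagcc
Col24a1: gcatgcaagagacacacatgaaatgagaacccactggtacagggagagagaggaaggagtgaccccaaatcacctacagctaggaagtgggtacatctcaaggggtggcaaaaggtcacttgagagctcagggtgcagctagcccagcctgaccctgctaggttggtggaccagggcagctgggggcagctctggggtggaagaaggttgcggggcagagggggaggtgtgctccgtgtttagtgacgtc
Matches were counted anywhere in the 250 bases, with no limit on their distance from the start site. Col1a2 has matches to the CCAAT and GC boxes and Col3a1 to TATAAA. Neither Col18a1 nor Col24a1 has a match to any of the 4 motifs in this window. Over the 35 collagens with an entry in RefSeq's promoter table, all at the start site of the count table, 12 had a match to CCAAT (34.3%, against 33.8% of all 32851 promoters) and 20 to GGGCGG (57.1%, against 32.7%). A match to TATAAA was in 5 (14.3%, against 12.4%) and one to TGANTCA in 1 (2.9%, against 6.7%). The median GC content was 58.8% in the collagens, against 52.4% in all promoters. Each collagen counts with 1 entry, whereas the 32851 entries were not reduced to 1 per gene or to the genes tested, so the sets are unlike. A match is a description of the letters and does not show binding.

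Lesioned and intact hemispheres differed for most collagens in both genotypes. A gene was counted as changed when its adjusted p (edgeR's quasi-likelihood test, Benjamini-Hochberg adjustment over 17612 genes) was under 0.05. In DKK1 mice 25 collagens were higher and 3 lower in the ipsilateral than in the contralateral hemisphere, 28 of 44 (63.6%), where 50.1% of all genes tested passed, 27.5% higher and 22.6% lower. In WT mice the counts were also 25 higher and 3 lower, 28 of 44 (63.6%), where 37.2% of all genes passed, 21.2% higher and 15.9% lower. The median log2 fold change of the 44 collagens was 0.84 in DKK1 and 0.65 in WT mice, against 0.01 over all genes in each. The libraries of both hemispheres did not overlap for 28 collagens in DKK1 mice (63.6%, against 59.9% of all genes) and for 29 in WT mice (65.9%, against 50.3%). Without WT ipsilateral 1, 18 collagens rose and 2 fell in WT mice, with a median of 0.42, where 25.2% of all genes passed, 15.8% higher and 9.43% lower. With the library number as a block within genotype, 31 collagens passed in each genotype, where 56.2% of all genes did in DKK1 and 45.3% in WT mice.

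The same 23 collagens rose and the same 2, Col24a1 and Col19a1, fell in both genotypes. Col6a2 and Col23a1 passed with a rise, and Col25a1 with a fall, in DKK1 mice alone. Col7a1 and Col9a1 passed with a rise, and Col11a1 with a fall, in WT mice alone. For none of these 6 did the difference between the 2 lesion effects pass its own test, with interaction adjusted p from 0.435 for Col25a1 to 0.924 for Col9a1. The 13 collagens that passed in neither genotype were Col2a1, Col5a1, Col4a2, Col4a3, Col6a1, Col6a4, Col6a5, Col6a6, Col22a1, Col10a1, Col17a1, Col26a1 and Col28a1.

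**Figure D3:**
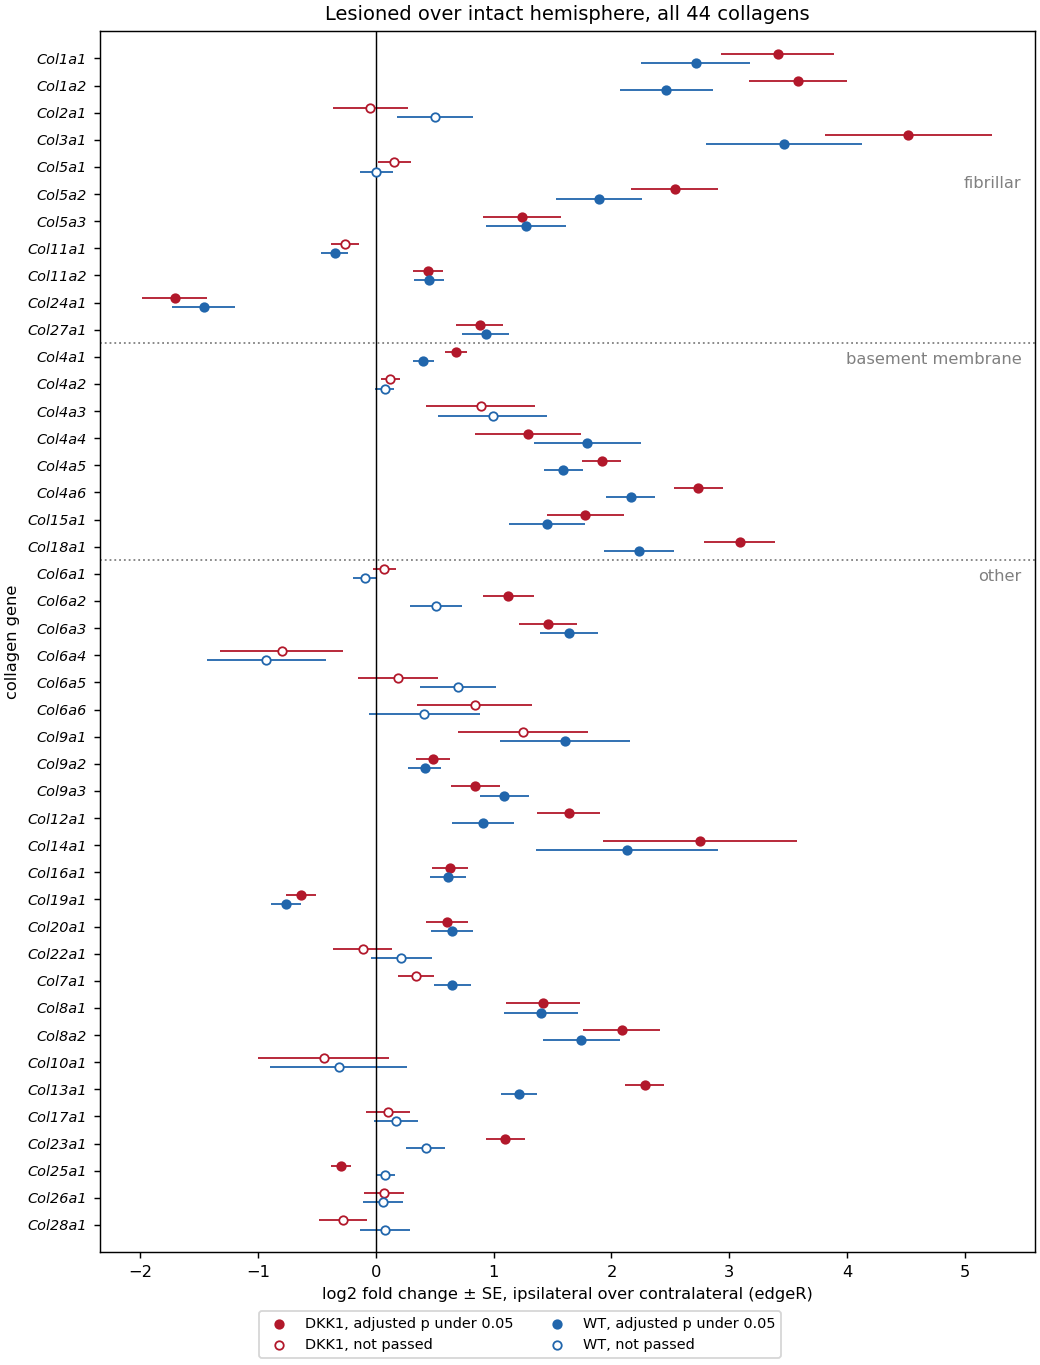
Log2 fold change ± SE of each of the 44 collagens, ipsilateral over contralateral, in DKK1 mice (red, upper point) and WT mice (blue, lower point), in rows from fibrillar through basement membrane to other collagens. Filled points passed adjusted p under 0.05 in edgeR over 17612 genes and open points did not. Col3a1 lies farthest to the right, at 4.52 in DKK1 and 3.47 in WT mice, and Col24a1 farthest to the left, at -1.71 and -1.46.

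Of the 11 fibrillar genes, 7 rose and 1 fell in DKK1 mice, with a median log2 fold change of 0.88, and 7 rose and 2 fell in WT mice, with a median of 0.93. Of all genes 27.5% rose and 22.6% fell in DKK1 mice, and 21.2% rose and 15.9% fell in WT mice. Col3a1, the type III chain that joins type I in thin fibres of vessel walls and healing wounds, had the largest fold of all collagens. Its levels were 16.1, 18.5 and 16.8 in the DKK1 ipsilateral libraries, against 1.05, 0.751 and 0.451 in the DKK1 contralateral libraries. In WT mice they were 24.9, 5.57 and 7.03 in the WT ipsilateral libraries, against 2.25, 0.442 and 0.636 in the WT contralateral libraries. All ipsilateral libraries were above all contralateral ones, and WT ipsilateral 1 was the highest of the 12. The log2 fold change was 4.52 ± 0.71 (SE), adjusted p = 0.000411 in DKK1 mice, a 23.0-fold rise. It was 3.47 ± 0.67 (SE), adjusted p = 0.00264 in WT mice. The WT value was 2.48 without WT ipsilateral 1 and 4.53 without WT contralateral 1, and both still passed.

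Both chains of type I collagen rose with it. The levels of Col1a2 were 36.1, 53.1 and 45.4 in the DKK1 ipsilateral libraries, against 4.53, 3.78 and 2.96 in the DKK1 contralateral libraries. In WT mice they were 49.3, 19.9 and 17.7 in the WT ipsilateral libraries, against 7.41, 3.93 and 4.35 in the WT contralateral libraries. The hemispheres did not overlap in either genotype, and the other WT ipsilateral libraries lay well below WT ipsilateral 1. Log2 fold changes were 3.58 ± 0.42 (SE), adjusted p = 5.3e-05 in DKK1 mice and 2.46 ± 0.40 (SE), adjusted p = 0.000948 in WT mice, and the WT value was 1.84 without WT ipsilateral 1. Its partner Col1a1 had levels of 23.6, 35.2 and 33.5 in the DKK1 ipsilateral libraries, against 3.38, 2.97 and 2.35 in the DKK1 contralateral libraries. WT mice had 40.7, 13.8 and 13.97 in the WT ipsilateral libraries, against 5.48, 2.28 and 2.61 in the WT contralateral libraries. As for Col1a2, the hemispheres did not overlap, and WT ipsilateral 1 lay well above the other WT ipsilateral libraries. For Col1a1 that library was also above all DKK1 ipsilateral libraries, whereas for Col1a2 it was below DKK1 ipsilateral 2. Col1a1 changed by 3.41 ± 0.48 (SE), adjusted p = 0.000192 in DKK1 mice and by 2.72 ± 0.46 (SE), adjusted p = 0.00134 in WT mice, and by 2.0 in WT mice without WT ipsilateral 1.

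Type V collagen, which is built into type I fibres and limits their width, had chains that rose and a chain that did not pass. Col5a2 rose, by 2.54 ± 0.37 (SE), adjusted p = 0.000235 in DKK1 mice and 1.89 ± 0.36 (SE), adjusted p = 0.00257 in WT mice, where the value was 1.26 without WT ipsilateral 1. Col5a3 rose by 1.24 ± 0.33 (SE), adjusted p = 0.00954 in DKK1 mice and 1.28 ± 0.34 (SE), adjusted p = 0.0129 in WT mice, where it did not pass without WT ipsilateral 1 (adjusted p = 0.0512). Col5a1 did not pass in either genotype, at 0.15 and 0.00 with SE of 0.14 in each.

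The type XI chains, minor components of cartilage fibres, had fold changes of opposite sign. Col11a2 had levels of 14.9, 12.6 and 14.01 in the DKK1 ipsilateral libraries, against 11.1, 9.82 and 9.58 in the DKK1 contralateral libraries. It had 13.6, 9.85 and 10.4 in the WT ipsilateral libraries, against 9.40, 8.13 and 7.25 in the WT contralateral libraries. With no overlap of hemispheres, the rises were small, 0.44 ± 0.13 (SE), adjusted p = 0.0126 in DKK1 mice and 0.45 ± 0.13 (SE), adjusted p = 0.0172 in WT mice. The call did not hold when DKK1 contralateral 2 or 3 was left out in DKK1 mice, nor when WT ipsilateral 1 or WT contralateral 2 or 3 was left out in WT mice, with adjusted p up to 0.0609 and 0.0675. Col11a1 had levels of 4.37, 4.61 and 5.06 in the DKK1 ipsilateral libraries, against 5.16, 6.43 and 5.26 in the DKK1 contralateral libraries. It had 4.33, 5.65 and 4.72 in the WT ipsilateral libraries, against 6.97, 5.86 and 5.89 in the WT contralateral libraries. All ipsilateral libraries were below all contralateral ones of their genotype. The log2 fold change was -0.35 ± 0.12 (SE), adjusted p = 0.0339 in WT mice and -0.26 ± 0.12 (SE), adjusted p = 0.0794, which did not pass, in DKK1 mice. The WT call was lost without WT ipsilateral 1 or 3 or WT contralateral 1, with adjusted p up to 0.127. It was also lost on the deposited TPM with either pseudocount (adjusted p = 0.106 and 0.103) and in the fit of only the groups compared (adjusted p = 0.0658). The DKK1 value passed with upper-quartile scaling (adjusted p = 0.0495).

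Col24a1, a minor fibrillar collagen, had the largest fall of all collagens. Its levels were 1.07, 1.15 and 1.07 in the DKK1 ipsilateral libraries, against 4.1, 3.56 and 3.14 in the DKK1 contralateral libraries. In WT mice they were 0.744, 2.03 and 1.39 in the WT ipsilateral libraries, against 4.49, 3.68 and 3.30 in the WT contralateral libraries. No overlap of hemispheres occurred, and WT ipsilateral 1 was the lowest of the 12 libraries. The log2 fold changes were -1.71 ± 0.27 (SE), adjusted p = 0.000387 in DKK1 mice and -1.46 ± 0.27 (SE), adjusted p = 0.00182 in WT mice. Col27a1, another minor fibrillar chain, rose by 0.88 in DKK1 and 0.93 in WT mice, and Col2a1, the main collagen of cartilage, did not pass in either.

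Of the 8 basement membrane genes, 6 rose and none fell in each genotype, with median log2 fold changes of 1.54 in DKK1 and 1.52 in WT mice. Of all genes 27.5% rose and 22.6% fell in DKK1 mice, and 21.2% rose and 15.9% fell in WT mice. Col18a1, whose protein carries heparan sulphate chains and releases the fragment endostatin, rose most. Its levels were 14.3, 18.5 and 22.5 in the DKK1 ipsilateral libraries, against 2.35, 2.32 and 1.83 in the DKK1 contralateral libraries. In WT mice they were 17.9, 8.61 and 10.4 in the WT ipsilateral libraries, against 3.34, 1.82 and 2.66 in the WT contralateral libraries. The hemispheres did not overlap, and WT ipsilateral 1 was above both other WT ipsilateral libraries. The log2 fold change was 3.09 ± 0.30 (SE), adjusted p = 1.57e-05 in DKK1 mice and 2.23 ± 0.29 (SE), adjusted p = 0.000259 in WT mice. Col15a1, its close relative in the zone next to basement membranes, had levels of 5.21, 4.44 and 6.86 in the DKK1 ipsilateral libraries, against 1.87, 1.41 and 1.54 in the DKK1 contralateral libraries. It had 7.42, 3.14 and 4.91 in the WT ipsilateral libraries, against 2.57, 1.17 and 1.89 in the WT contralateral libraries. Hemispheres did not overlap here either, and Col15a1 rose by 1.78 ± 0.33 (SE), adjusted p = 0.00100 in DKK1 mice and 1.45 ± 0.32 (SE), adjusted p = 0.00532 in WT mice.

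The 6 type IV chains are encoded as 3 pairs that lie head to head in the genome. Col4a1 and Col4a2, whose transcripts overlap by 22 bases at their starts, make the network found in all basement membranes. Col4a1 had levels of 23.9, 29.6 and 30.7 in the DKK1 ipsilateral libraries, against 16.4, 19.0 and 17.2 in the DKK1 contralateral libraries. It had 25.1, 22.6 and 24.7 in the WT ipsilateral libraries, against 18.1, 17.4 and 19.3 in the WT contralateral libraries. Every ipsilateral library was above every contralateral one of its genotype, with rises of 0.68 ± 0.09 (SE), adjusted p = 0.000110 in DKK1 mice and 0.40 ± 0.09 (SE), adjusted p = 0.00556 in WT mice. Col4a2 had levels of 19.2, 21.9 and 23.1 in the DKK1 ipsilateral libraries, against 19.5, 21.7 and 17.7 in the DKK1 contralateral libraries. It had 21.0, 20.3 and 21.7 in the WT ipsilateral libraries, against 19.2, 20.4 and 20.2 in the WT contralateral libraries. The hemispheres overlapped, and log2 fold changes of 0.12 ± 0.08 (SE), adjusted p = 0.228 in DKK1 mice and 0.08 ± 0.08 (SE), adjusted p = 0.489 in WT mice did not pass.

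Col4a6 and Col4a5, 1342 bases apart on chromosome X, encode chains that assemble together in smooth muscle and some epithelia. Col4a6 had levels of 3.03, 3.37 and 3.81 in the DKK1 ipsilateral libraries, against 0.468, 0.578 and 0.482 in the DKK1 contralateral libraries. It had 2.64, 2.07 and 1.96 in the WT ipsilateral libraries, against 0.665, 0.350 and 0.467 in the WT contralateral libraries. Hemispheres did not overlap, and Col4a6 rose by 2.74 ± 0.21 (SE), adjusted p = 2.46e-06 in DKK1 mice and by 2.16 ± 0.21 (SE), adjusted p = 3.53e-05 in WT mice. Col4a5 rose by 1.92 ± 0.17 (SE), adjusted p = 4.79e-06 in DKK1 mice and by 1.59 ± 0.16 (SE), adjusted p = 5.03e-05 in WT mice. Col4a4 and Col4a3, 71 bases apart on chromosome 1, are chains of the kidney filter and had mean levels under 1 here. The bases between their starts, chr1:82586850-82586920 (minus strand, RefSeq, GRCm38.p6), are shown because they precede both genes, and they hold none of the 4 motifs searched above.
Col4a4-Col4a3: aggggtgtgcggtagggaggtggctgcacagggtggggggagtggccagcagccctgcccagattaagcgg
Col4a4 rose by 1.29 ± 0.45 (SE), adjusted p = 0.0322 in DKK1 mice, a call lost without DKK1 ipsilateral 3 or DKK1 contralateral 1 or 3 (adjusted p up to 0.168), and by 1.79 ± 0.45 (SE), adjusted p = 0.00999 in WT mice. Col4a3 had 0.89 ± 0.47 (SE), adjusted p = 0.134 in DKK1 mice and 0.99 ± 0.46 (SE), adjusted p = 0.113 in WT mice and did not pass. It passed in both with the library number as a block within genotype (adjusted p = 0.0225 in DKK1 and 0.0282 in WT mice) and without DKK1 contralateral 2 (0.00814 and 0.0443).

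Ratios of partner chains, taken within a library from levels per kilobase, differed between hemispheres for several pairs. Col4a1 over Col4a2 was 1.24, 1.35 and 1.33 in DKK1 ipsilateral libraries, against 0.838, 0.875 and 0.971 in DKK1 contralateral libraries. It was 1.20, 1.12 and 1.14 in WT ipsilateral libraries, against 0.942, 0.854 and 0.954 in WT contralateral libraries. The ratio was above 1 in all 6 lesioned and below 1 in all 6 intact libraries. Col4a5 over Col4a6 was 1.14, 1.30 and 1.21 in DKK1 ipsilateral libraries, against 2.13, 1.86 and 2.54 in DKK1 contralateral libraries. It was 1.56, 1.59 and 1.60 in WT ipsilateral libraries, against 2.15, 2.94 and 2.22 in WT contralateral libraries. Here the lesioned hemispheres were lower without overlap, and the 3 DKK1 ipsilateral libraries were below the 3 WT ipsilateral ones. For the third pair, Col4a3 over Col4a4, the ratio was 0.761, 0.877 and 0.558 in DKK1 ipsilateral libraries, against 0.551, 1.09 and 0.907 in DKK1 contralateral libraries, which overlapped. It was 0.612, 0.611 and 0.590 in WT ipsilateral libraries, against 1.13, 1.44 and 0.806 in WT contralateral libraries, which did not. Col5a1 over Col5a2 was 1.11, 0.847 and 0.990 in DKK1 ipsilateral, against 5.12, 4.55 and 5.72 in DKK1 contralateral libraries. The same ratio was 0.982, 1.70 and 2.21 in WT ipsilateral, against 4.69, 5.06 and 5.84 in WT contralateral libraries. Col1a1 over Col1a2 ranged from 0.581 to 0.827 over all 12 libraries. A ratio shows unequal levels within a library and carries no test here.

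**Figure D4:**
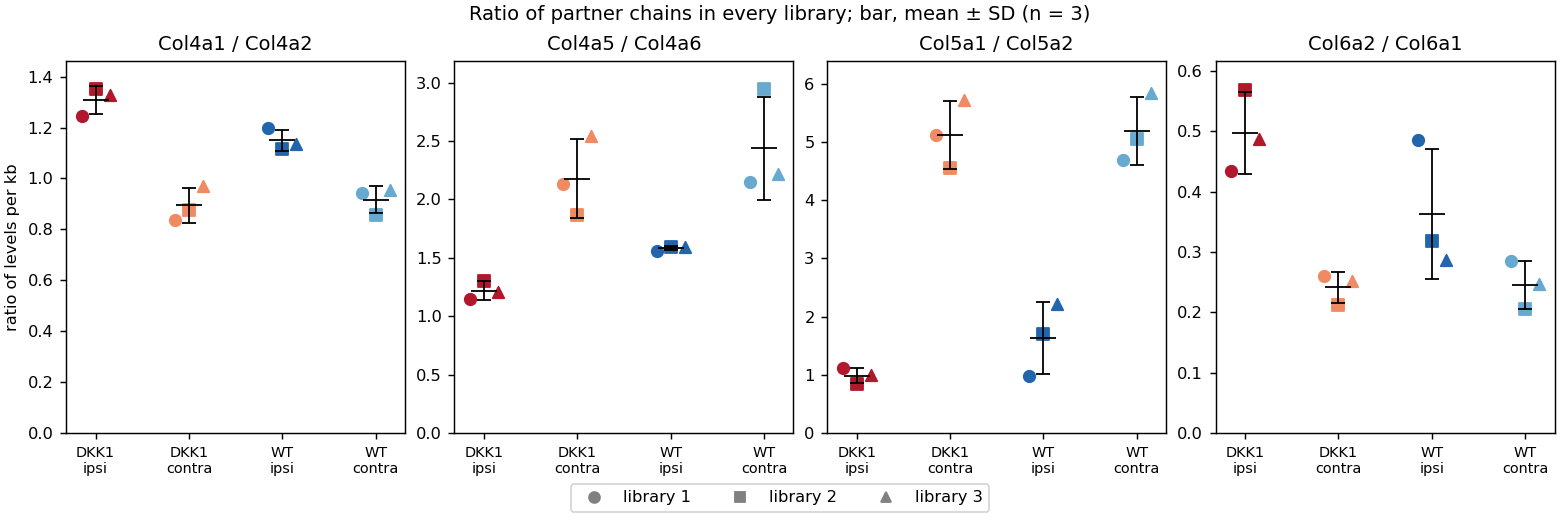
Ratio of levels per kilobase of partner collagen chains in each library (linear axes from 0), with DKK1 ipsilateral first, then DKK1 contralateral, WT ipsilateral and WT contralateral. Symbols mark the library number and bars the mean ± SD of 3 libraries. Lesioned and intact libraries do not overlap for Col4a1 over Col4a2, Col4a5 over Col4a6, Col5a1 over Col5a2 or Col6a2 over Col6a1. For Col6a2 over Col6a1 the margin is small, with 0.286 in WT ipsilateral 3 against 0.284 in WT contralateral 1. In that pair WT ipsilateral 1, at 0.485, lies above the other WT ipsilateral libraries at 0.317 and 0.286.

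Of the 25 other collagens, 12 rose and 2 fell in DKK1 mice, where 50.1% of all genes passed, with a median log2 fold change of 0.60. In WT mice 12 rose and 1 fell, where 37.2% of all genes passed, with a median of 0.51. There 8 of them passed without WT ipsilateral 1, where 25.2% of all genes did, and 8 without WT contralateral 3, where 29.6% did. Among the 6 beaded-filament genes of type VI, 2 rose in DKK1 mice and 1 in WT mice, where 27.5% and 21.2% of all genes rose. In WT mice Col6a5 also passed without WT ipsilateral 2, Col6a2 without WT ipsilateral 3 and Col6a4, as lower, without WT contralateral 1. Col6a1 had levels of 51.6, 57.9 and 49.9 in the DKK1 ipsilateral libraries, against 45.8, 54.1 and 52.0 in the DKK1 contralateral libraries. It had 48.3, 45.5 and 41.4 in the WT ipsilateral libraries, against 41.4, 51.5 and 51.3 in the WT contralateral libraries. The hemispheres overlapped, and neither 0.07 ± 0.10 (SE), adjusted p = 0.584 in DKK1 mice nor -0.09 ± 0.10 (SE), adjusted p = 0.491 in WT mice passed.

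Its partner Col6a2 had levels of 22.4, 32.9 and 24.3 in the DKK1 ipsilateral libraries, against 11.9, 11.5 and 13.0 in the DKK1 contralateral libraries. It had 23.4, 14.4 and 11.8 in the WT ipsilateral libraries, against 11.8, 10.6 and 12.6 in the WT contralateral libraries. The hemispheres did not overlap in DKK1 mice and did in WT mice, where WT ipsilateral 1 was high. Col6a2 rose by 1.13 ± 0.22 (SE), adjusted p = 0.00144 in DKK1 mice, while 0.51 ± 0.22 (SE), adjusted p = 0.0903 in WT mice did not pass. Col6a3, the long chain of the filament, rose by 1.46 ± 0.25 (SE), adjusted p = 0.000543 in DKK1 mice and by 1.64 ± 0.24 (SE), adjusted p = 0.000533 in WT mice. Col6a4, which can take the place of Col6a3, had levels of 1.17, 1.56 and 0.922 in the DKK1 ipsilateral libraries, against 1.87, 2.39 and 2.09 in the DKK1 contralateral libraries. It had 0.965, 3.29 and 2.04 in the WT ipsilateral libraries, against 1.35, 6.52 and 4.15 in the WT contralateral libraries. In DKK1 mice the hemispheres did not overlap, and in WT mice the same library numbers were high in both hemispheres, and within each number the ipsilateral library was the lower one. The log2 fold change was -0.80 ± 0.52 (SE), adjusted p = 0.228 in DKK1 mice and -0.93 ± 0.50 (SE), adjusted p = 0.172 in WT mice, neither of which passed. With the library number as a block it passed as lower in both, with adjusted p = 0.000515 in DKK1 and 0.00039 in WT mice. It also passed in DKK1 mice when only their libraries were fitted (0.00757) and in WT mice without WT contralateral 1 (0.0208).

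Among the 9 collagens that attach to the surface of fibres (FACIT), 6 rose and 1 fell in DKK1 mice, and 7 rose and 1 fell in WT mice, where 3 passed without WT ipsilateral 1, 4 without WT contralateral 2 and 3 without WT contralateral 3. Of all genes 27.5% rose in DKK1 and 21.2% in WT mice, and 25.2%, 26.7% and 29.6% passed in these 3 omissions. Col14a1, which binds type I fibres, had levels of 1.42, 1.28 and 0.932 in the DKK1 ipsilateral libraries, against 0.253, 0.179 and 0.109 in the DKK1 contralateral libraries. It had 3.07, 0.502 and 0.291 in the WT ipsilateral libraries, against 0.504, 0.207 and 0.158 in the WT contralateral libraries. The hemispheres did not overlap in DKK1 mice and did in WT mice, where WT ipsilateral 1 was the highest of the 12 libraries. The rise was 2.75 ± 0.82 (SE), adjusted p = 0.0163 in DKK1 mice, a call lost without DKK1 contralateral 3 (adjusted p = 0.0575). It was 2.13 ± 0.77 (SE), adjusted p = 0.0495 in WT mice, and the WT value was 0.43 without WT ipsilateral 1 (adjusted p = 0.540) and 2.81 without WT contralateral 1. The WT call held without WT contralateral 1, WT ipsilateral 2 or WT ipsilateral 3 and was lost in the other 9 omissions of 1 library. It was also lost with no filter on low counts, with RLE scaling, by limma-voom, on the deposited TPM with either pseudocount and in the fit of only the groups compared.

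Col9a3, a type IX chain known from cartilage, was the most abundant FACIT gene. Its levels were 13.7, 12.8 and 19.9 in the DKK1 ipsilateral libraries, against 8.17, 9.62 and 8.03 in the DKK1 contralateral libraries. In WT mice they were 23.0, 15.6 and 13.9 in the WT ipsilateral libraries, against 8.63, 6.80 and 9.23 in the WT contralateral libraries. Without overlap of hemispheres, Col9a3 rose by 0.84 ± 0.21 (SE), adjusted p = 0.00576 in DKK1 mice and by 1.09 ± 0.21 (SE), adjusted p = 0.00239 in WT mice. Its exons share 6.1% of their bases with those of Tcfl5 on the other strand, and the use of strand in counting is not given in the sources used here. Col19a1, which neurons make in the mouse brain, had levels of 4.12, 3.32 and 3.11 in the DKK1 ipsilateral libraries, against 6.05, 5.26 and 5.08 in the DKK1 contralateral libraries. It had 2.81, 3.91 and 3.40 in the WT ipsilateral libraries, against 5.94, 5.43 and 5.77 in the WT contralateral libraries. All ipsilateral libraries were below all contralateral ones, with log2 fold changes of -0.64 ± 0.13 (SE), adjusted p = 0.00157 in DKK1 mice and -0.76 ± 0.13 (SE), adjusted p = 0.000997 in WT mice. Col12a1, like Col14a1 a partner of type I fibres, rose by 1.64 ± 0.27 (SE), adjusted p = 0.000454 in DKK1 mice and by 0.91 ± 0.26 (SE), adjusted p = 0.0191 in WT mice, where the call was lost without WT ipsilateral 1 or WT contralateral 2 or 3 (adjusted p up to 0.075). Col16a1 rose by 0.63 in DKK1 and 0.61 in WT mice. Col9a2 and Col20a1 rose by 0.49 and 0.60 in DKK1 mice and by 0.41 and 0.64 in WT mice. Col9a2 lost its call in DKK1 mice without DKK1 contralateral 1 or 3 and in WT mice without DKK1 ipsilateral 2 or 3 or any WT library other than WT ipsilateral 2 (adjusted p up to 0.146). Col20a1 lost it in WT mice without WT ipsilateral 1 or WT contralateral 3 (adjusted p up to 0.0631). Col9a1 passed in WT mice at 1.61, where the value was 2.57 without WT contralateral 1, and the call was lost without DKK1 contralateral 2 or any other WT library (adjusted p up to 0.131).

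The network-forming type VIII chains, made by endothelium and smooth muscle, rose together. Col8a2 rose by 2.09 ± 0.33 (SE), adjusted p = 0.000342 in DKK1 mice and by 1.74 ± 0.32 (SE), adjusted p = 0.00198 in WT mice. Col8a1 rose by 1.42 ± 0.31 (SE), adjusted p = 0.00303 in DKK1 mice and by 1.40 ± 0.32 (SE), adjusted p = 0.00557 in WT mice. Col7a1, the anchoring fibril of skin, rose in WT mice by 0.65 ± 0.16 (SE), adjusted p = 0.00773, and had 0.34 ± 0.16 (SE), adjusted p = 0.0884 in DKK1 mice, which passed only without DKK1 ipsilateral 2 (adjusted p = 0.0443). Col10a1, a marker of growing cartilage, had 4 to 27 counts per library and did not pass.

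Of the 4 transmembrane collagens, 2 rose and 1 fell in DKK1 mice and 1 rose in WT mice. Of all genes 27.5% rose and 22.6% fell in DKK1 mice, and 21.2% rose in WT mice. Col13a1, a membrane collagen of cell adhesions and of the neuromuscular junction, had levels of 2.15, 2.22 and 2.30 in the DKK1 ipsilateral libraries, against 0.534, 0.407 and 0.433 in the DKK1 contralateral libraries. It had 1.94, 1.63 and 1.54 in the WT ipsilateral libraries, against 0.805, 0.671 and 0.717 in the WT contralateral libraries. Hemispheres did not overlap, and the rise was 2.28 ± 0.16 (SE), adjusted p = 2.04e-06 in DKK1 mice and 1.21 ± 0.16 (SE), adjusted p = 0.000178 in WT mice. Col23a1 had levels of 5.25, 8.72 and 8.55 in the DKK1 ipsilateral libraries, against 3.46, 3.67 and 3.38 in the DKK1 contralateral libraries. It had 4.98, 4.92 and 4.30 in the WT ipsilateral libraries, against 3.96, 3.28 and 3.35 in the WT contralateral libraries. The hemispheres did not overlap in either genotype. Col23a1 rose by 1.10 ± 0.16 (SE), adjusted p = 0.000239 in DKK1 mice, while 0.42 ± 0.16 (SE), adjusted p = 0.0634 in WT mice did not pass. The WT value passed with the library number as a block (adjusted p = 0.0227), without DKK1 ipsilateral 1 (0.00390), without WT contralateral 1 (0.0498), with the WT libraries alone (0.0246) and by DESeq2 (0.0478).

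Col25a1, a collagen of neurons that is also found in amyloid plaques, had levels of 8.17, 7.58 and 7.98 in the DKK1 ipsilateral libraries, against 9.76, 10.3 and 9.15 in the DKK1 contralateral libraries. It had 11.6, 10.4 and 11.9 in the WT ipsilateral libraries, against 11.97, 9.42 and 10.6 in the WT contralateral libraries. The 3 DKK1 ipsilateral libraries were the lowest of the 12. Col25a1 fell by 0.30 on the log2 scale in DKK1 mice (SE 0.08, adjusted p = 0.0113), while 0.08 ± 0.08 (SE), adjusted p = 0.480 in WT mice did not pass. Col26a1 and Col28a1, which fit none of these groups, and the skin collagen Col17a1 did not pass in either genotype.

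In the lesioned hemisphere the genotypes differed for 1 collagen in the fit to all 12 libraries. DKK1 and WT ipsilateral libraries differed in Col25a1 alone, 1 of 44 (2.27%), where 2.37% of all genes passed, 1.52% higher and 0.846% lower, and its log2 fold change was -0.51 ± 0.08 (SE), adjusted p = 0.00915. The values given above, 8.17, 7.58 and 7.98 in the DKK1 ipsilateral libraries, against 11.6, 10.4 and 11.9 in the WT ipsilateral libraries, did not overlap. It did not pass without DKK1 ipsilateral 2 (adjusted p = 0.0559) or WT ipsilateral 3 (adjusted p = 0.0573). Of the 44 collagens, 12 had an unadjusted p under 0.05, and 8 did not overlap between genotypes (18.2%, against 20.6% of all genes). The median log2 fold change, DKK1 over WT, was 0.12, against 0.02 over all genes.

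Col23a1 and Col4a6 came next by p. Col23a1 had 5.25, 8.72 and 8.55 in the DKK1 ipsilateral libraries, against 4.98, 4.92 and 4.30 in the WT ipsilateral libraries. The genotypes did not overlap, and the log2 fold change was 0.67 ± 0.16 (SE), adjusted p = 0.0549. Col4a6 had 3.03, 3.37 and 3.81 in the DKK1 ipsilateral libraries, against 2.64, 2.07 and 1.96 in the WT ipsilateral libraries. Again the genotypes did not overlap, with a log2 fold change of 0.61 ± 0.19 (SE), adjusted p = 0.102. With the library number as a block, here a random effect in limma-voom, Col4a6 passed (adjusted p = 0.0296), where 3.87% of all genes did. DESeq2 called 5 collagens, where it called 6.5% of all genes: Col25a1 and Col6a5 lower, and Col23a1, Col4a6 and Col6a2 higher in DKK1 mice. limma-voom without the block also called Col25a1 and Col4a6 (adjusted p = 0.0339 for Col4a6), where it called 3.94% of all genes.

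The count turned on WT ipsilateral 1. Without that library 12 collagens were higher and 2 lower in DKK1 than in WT ipsilateral libraries, 14 of 44 (31.8%), where 14.6% of all genes passed, 10.3% higher and 4.24% lower, and the median log2 fold change was 0.29. The 12 higher were Col1a1, Col1a2, Col5a2, Col11a2, Col4a6, Col18a1, Col6a2, Col12a1, Col14a1, Col16a1, Col20a1 and Col23a1, and the 2 lower were Col24a1 and Col25a1. Then Col14a1 had a log2 fold change of 1.61 (adjusted p = 0.0398), against -0.09 with all libraries. Col1a2 had 1.26 (adjusted p = 0.0159), against 0.63, and Col6a2 had 1.02 (adjusted p = 0.00389), against 0.68. For 20 of 44 collagens all 3 DKK1 ipsilateral libraries were above WT ipsilateral 2 and 3, and for 4 all 3 were below. WT ipsilateral 1 itself was above all 3 DKK1 ipsilateral libraries for 17 of 44. Without DKK1 ipsilateral 1, 3 collagens passed, Col25a1, Col23a1 and Col4a1, where 6.25% of all genes did.

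**Figure D5:**
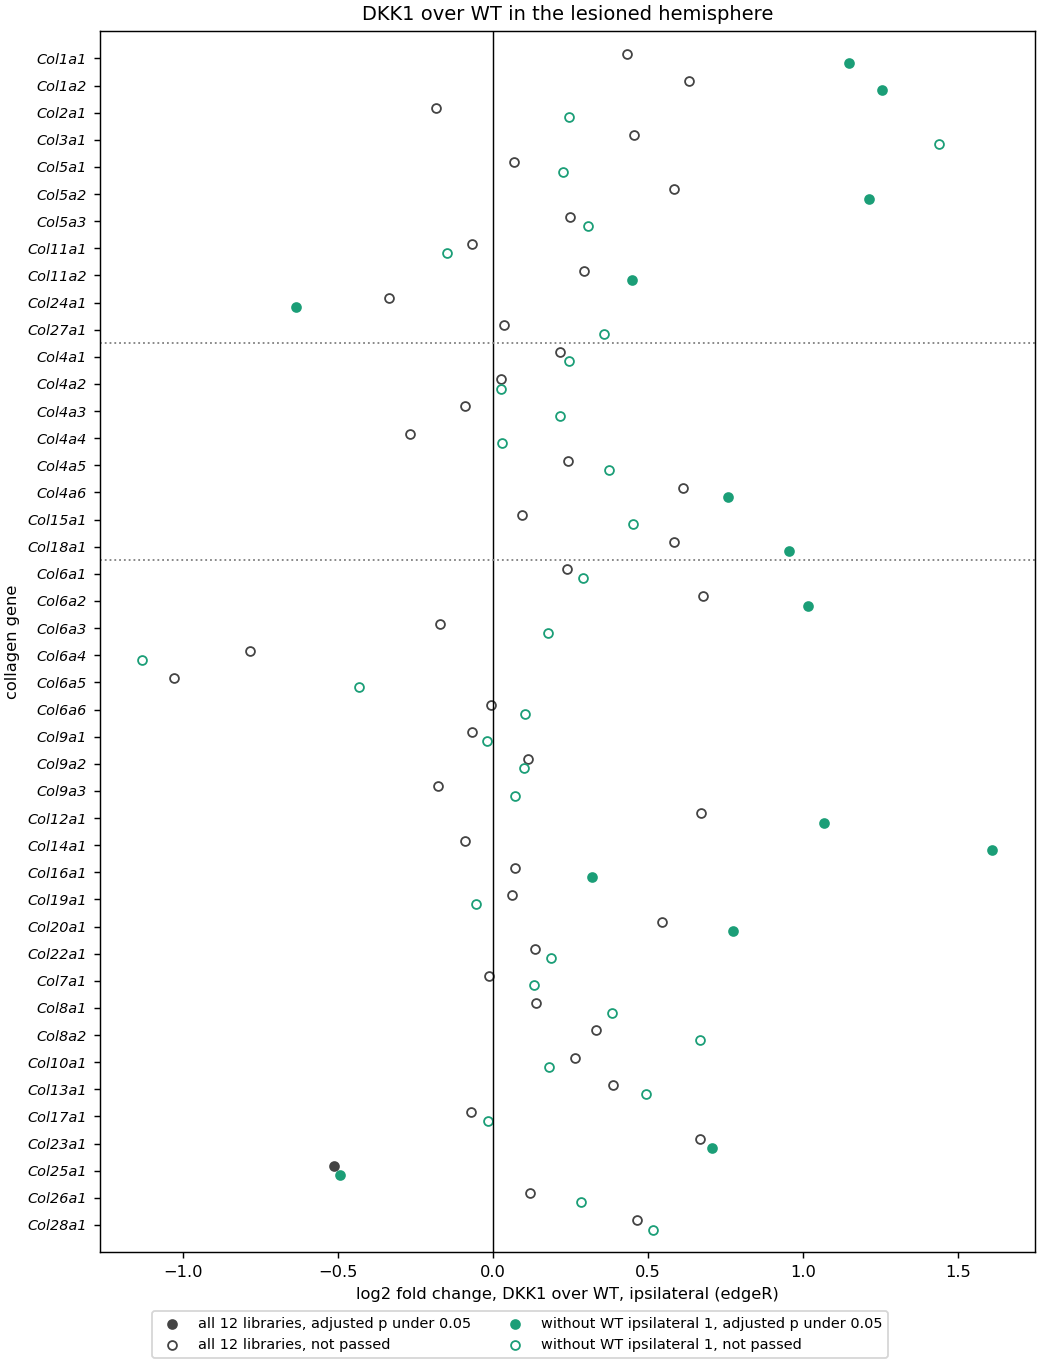
Log2 fold change of each of the 44 collagens, DKK1 over WT in the ipsilateral hemisphere, in the fit to all 12 libraries (grey, upper point) and in the fit without WT ipsilateral 1 (green, lower point), in rows from fibrillar through basement membrane to other collagens. Filled points passed adjusted p under 0.05 in edgeR. With all libraries Col25a1 is the 1 filled point, and without WT ipsilateral 1 there are 14.

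In the intact hemisphere none of the 44 collagens differed between genotypes by edgeR, where 0.88% of all genes passed (0.369% higher, 0.511% lower). None did by DESeq2, limma-voom or with the replicate block, where 1.52%, 0.761% and 0.749% of all genes passed. The median log2 fold change was -0.01. At an unadjusted p under 0.05 there were 4. Col13a1 had 0.534, 0.407 and 0.433 in the DKK1 contralateral libraries, against 0.805, 0.671 and 0.717 in the WT contralateral libraries. The genotypes did not overlap, with DKK1 lower, and the log2 fold change was -0.68 ± 0.17 (SE), adjusted p = 0.134. Col28a1, known from the sheath of peripheral nerves, had 0.502, 0.792 and 0.707 in the DKK1 contralateral libraries, against 0.385, 0.337 and 0.413 in the WT contralateral libraries. DKK1 was higher without overlap, at 0.82 ± 0.21 (SE), adjusted p = 0.151. Col20a1 had 2.95, 2.76 and 2.83 in the DKK1 contralateral libraries, against 2.13, 2.09 and 1.46 in the WT contralateral libraries, with DKK1 again higher without overlap and a log2 fold change of 0.58 ± 0.18 (SE), adjusted p = 0.345. In the lesioned hemisphere Col20a1 had a like value, 0.54 ± 0.17 (SE), adjusted p = 0.116. The libraries of DKK1 and WT did not overlap for 7 of 44 collagens (15.9%, against 11.9% of all genes).

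The lesion effect did not differ between genotypes for any collagen by edgeR's interaction test, where 0.00568% of all genes passed. None differed by DESeq2, where 0.369% of all genes did, by limma-voom, where 0% did, or with the replicate block, where 1.64% did. In edgeR 3 had an unadjusted p under 0.05. Col13a1, lower in DKK1 than in WT contralateral libraries and higher in DKK1 than in WT ipsilateral ones, had the smallest p, with a difference of lesion effects (DKK1 minus WT) of 1.07 ± 0.22 (SE), adjusted p = 0.319. The values were -0.38 ± 0.12 (SE), adjusted p = 0.435 for Col25a1 and 0.68 ± 0.23 (SE), adjusted p = 0.460 for Col23a1. Without WT ipsilateral 1, 4 collagens passed (9.09%, where 2.27% of all genes did, 2% with the larger and 0.267% with the smaller value in DKK1), all with the larger rise in DKK1 mice. Then Col1a2 had 1.74 (adjusted p = 0.0476), Col5a2 1.27 (0.0498), Col6a2 0.95 (0.0462) and Col13a1 1.17 (0.0329). Without DKK1 ipsilateral 1, Col23a1 passed at 0.88 (adjusted p = 0.0359). The 5 comparisons share libraries, so their calls are not independent.

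The genes that fold and modify collagen chains rose with the lesion in part. Of 19 such genes 15 rose in DKK1 mice and 13 in WT mice, where 27.5% and 21.2% of all genes rose. None fell, and median log2 fold changes were 0.65 and 0.44. With the replicate block 1 of them passed as lower in DKK1 mice. Plod1, a lysyl hydroxylase, rose by 1.56 ± 0.10 (SE), adjusted p = 1.15e-06 in DKK1 mice and by 1.03 ± 0.10 (SE), adjusted p = 3.04e-05 in WT mice. Serpinh1, the collagen chaperone HSP47, rose by 2.28 ± 0.19 (SE), adjusted p = 5.22e-06 in DKK1 mice and by 1.39 ± 0.19 (SE), adjusted p = 0.000293 in WT mice. Between genotypes in the lesioned hemisphere 2 of 19 passed, Ppib and Colgalt1, higher in DKK1 mice by 0.24 ± 0.06 (SE), adjusted p = 0.0460 and 0.33 ± 0.08 (SE), adjusted p = 0.0481. The count was 6 without DKK1 ipsilateral 1, 10 without WT ipsilateral 1, 1 without WT contralateral 1 and 0 without any other library. Of all genes 2.37% passed there, 6.25% without DKK1 ipsilateral 1 and 14.6% without WT ipsilateral 1.

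Of 13 genes that trim procollagen and cross-link fibres, 9 rose and 1 fell in DKK1 mice and 8 rose and 1 fell in WT mice. Of all genes 27.5% rose and 22.6% fell in DKK1 mice, and 21.2% rose and 15.9% fell in WT mice. Lox, the enzyme that starts the cross-links between collagen chains, rose by 4.65 ± 0.42 (SE), adjusted p = 6.84e-06 in DKK1 mice and by 3.19 ± 0.39 (SE), adjusted p = 0.000156 in WT mice. Pcolce, an enhancer of procollagen trimming, rose by 2.73 ± 0.27 (SE), adjusted p = 1.55e-05 in DKK1 mice and by 1.83 ± 0.27 (SE), adjusted p = 0.000441 in WT mice. None of the 13 differed between genotypes in the lesioned hemisphere by edgeR, and 5 did without WT ipsilateral 1, where 2.37% and 14.6% of all genes did. Of 10 collagen receptors tested, 9 rose in DKK1 mice and 8 in WT mice, against the same 27.5% and 21.2% of all genes. Mrc2, an uptake receptor for collagen, rose by 3.27 ± 0.36 (SE), adjusted p = 3.38e-05 in DKK1 mice and by 2.0 ± 0.35 (SE), adjusted p = 0.00140 in WT mice, and Itgb1, the beta chain of collagen-binding integrins, by 1.24 and 0.77. Between genotypes in the lesioned hemisphere no receptor passed by edgeR, and 6 did without WT ipsilateral 1, where 14.6% of all genes did.

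Of 11 partners of type IV collagen in basement membranes, 10 rose in each genotype, where 27.5% of all genes rose in DKK1 and 21.2% in WT mice. Lama1, a laminin chain, rose by 2.27 ± 0.15 (SE), adjusted p = 1.79e-06 in DKK1 mice and by 1.51 ± 0.15 (SE), adjusted p = 4.19e-05 in WT mice. In the lesioned hemisphere it was also higher in DKK1 than in WT mice, by 0.62 ± 0.14 (SE), adjusted p = 0.0452, the 1 gene of the 11 that passed. That count was 5 without WT ipsilateral 1, 1 without DKK1 ipsilateral 1 or WT contralateral 1 and 0 without any other library. Of all genes 2.37% passed there, and 14.6% without WT ipsilateral 1.

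Markers of cells that make collagen are given as summed levels. The 12 fibroblast and meningeal markers summed to 823 to 1138 CPM in DKK1 ipsilateral, against 200.0 to 253.1 CPM in DKK1 contralateral libraries, and to 842 CPM in WT ipsilateral 1 and 639 and 632 CPM in WT ipsilateral 2 and 3, against 191 to 316 CPM in WT contralateral libraries. All 12 rose in DKK1 mice and 11 in WT mice, where 27.5% and 21.2% of all genes rose, and Dcn rose by 3.99 and 2.93. Between genotypes in the lesioned hemisphere none of the 12 passed, 2 did with the replicate block, 4 without WT ipsilateral 1 and 3 without DKK1 ipsilateral 1. Of all genes 2.37%, 3.87%, 14.6% and 6.25% passed in these fits, in this order. The 10 pericyte and smooth muscle markers summed to 576 to 619 CPM in DKK1 ipsilateral, against 297 to 368 CPM in DKK1 contralateral libraries, and to 534 CPM in WT ipsilateral 1 and 460 and 436 CPM in WT ipsilateral 2 and 3, against 322 to 406 CPM in WT contralateral libraries. Of these 6 rose in DKK1 mice and 4 in WT mice, against 27.5% and 21.2% of all genes. In WT mice 2 did without WT contralateral 2, where 26.7% of all genes passed in either direction. Between genotypes in the lesioned hemisphere 1 passed, Myh11, at 0.52 ± 0.11 (SE), adjusted p = 0.0366, and 2 did with the replicate block, 3 without WT ipsilateral 1, 1 without DKK1 ipsilateral 1 or WT contralateral 1 or 2, and 0 without any other library. The 10 endothelial markers summed to 442 to 484 CPM in DKK1 ipsilateral, against 322 to 361 CPM in DKK1 contralateral libraries, and to 440 CPM in WT ipsilateral 1 and 410 and 388 CPM in WT ipsilateral 2 and 3, against 325 to 405 CPM in WT contralateral libraries. Of these 5 rose in DKK1 mice and 3 in WT mice, against 27.5% and 21.2% of all genes. Without DKK1 contralateral 3, 3 passed in DKK1 mice, a fit for which the share of all genes is not given here. With the replicate block 8 rose in DKK1 mice and 6 in WT mice, where 56.2% and 45.3% of all genes passed in either direction. WT ipsilateral 1, the library with the highest collagen sum, was below all 3 DKK1 ipsilateral libraries in the pericyte sum. In the endothelial sum it was just below them, at 439.7 against 441.6 CPM in DKK1 ipsilateral 3. It was within their range in the fibroblast and meningeal sum (842 CPM) and in the microglia and macrophage sum (1311 CPM). How these sums relate to the collagen sum was not tested. Between genotypes in the lesioned hemisphere 1 passed, Pecam1, at 0.51 ± 0.08 (SE), adjusted p = 0.00882, a call lost without DKK1 ipsilateral 3 or WT ipsilateral 3. Without WT ipsilateral 1, 2 passed, where 14.6% of all genes did.

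The 10 microglia and macrophage markers summed to 1299 to 1458 CPM in DKK1 ipsilateral, against 185 to 241 CPM in DKK1 contralateral libraries. They summed to 751 to 1311 CPM in WT ipsilateral, against 187 to 347 CPM in WT contralateral libraries. Of these 9 rose in DKK1 and 8 in WT mice, where 27.5% and 21.2% of all genes rose. The 9 neuron markers summed to 3430 to 3947 CPM in DKK1 ipsilateral, against 4690 to 5221 CPM in DKK1 contralateral libraries. They summed to 3400 to 4186 CPM in WT ipsilateral, against 4756 to 4902 CPM in WT contralateral libraries. In DKK1 mice 9 fell and in WT mice 7, where 22.6% and 15.9% of all genes fell. No marker of these 5 lists was at 0 in all libraries of a group. What part these markers have in the collagen differences was not tested.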

How the data were processed

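Per the labels' protocols, total RNA from brain samples was made into directional mRNA libraries (NEBNext Ultra II). The submitters' processing notes name STAR 2.7.0f, HOMER 4.11, DESeq2 and the build mm10; no source used here gives their roles or the use of strand. The authors deposited raw counts per RefSeq transcript, 1 for each of 25124 genes, with coordinates (mm10), and TPM of these libraries in a second table, per the file headers. The deposited TPM sum to between 464026 and 480699 per library, and 7 collagens have another transcript there than in the count table.

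All tests rest on the deposited counts. Groups came from the labels. With edgeR 4.0.16 (R 4.3.3), genes were filtered by expression (minimum count 10), which left 17612, scaled by TMM and fitted in 1 robust quasi-likelihood model of 12 libraries in 4 groups. The contrasts were ipsilateral against contralateral in each genotype, DKK1 against WT in each hemisphere, and the interaction, each two-sided and adjusted by Benjamini-Hochberg over all genes (threshold 0.05). The SE of a log2 fold change was worked back from this test, as its size over the square root of the test's F statistic. It was not estimated separately. Totals of 21209920 to 26911840 counts per library set the precision, which is lowest for genes such as Col10a1 with 4 to 27 counts. Classes, partner and marker lists were written from textbook knowledge. The members and lists were chosen with earlier results of these data known. The fit was tested on simulated data.

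Values per library are given for the 4 most abundant collagens of each class, for those past the threshold in a genotype comparison or the interaction (or the 3 of smallest p), and for the 5 largest changes each way in each lesion comparison. Col6a4 was named with its libraries after its values were seen, as were the calls that depend on 1 library. Of other lists, members are named from the 3 of smallest p. Exon overlaps came from GENCODE M21, where 13 of 44 collagens share exon bases with another gene, at most 6.1%.

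Alternatives were no filter, other scalings (RLE, upper quartile), DESeq2 1.42.0, limma-voom (limma 3.58.1) and limma-trend on log2 of the deposited TPM plus a pseudocount of 1 or 0.1. Others were only the groups compared, a block, and each library left out. The block was fitted in edgeR for the lesion comparisons and the interaction, and in limma-voom for the genotype comparisons. Same-numbered libraries of a genotype deviated together from their group means, with correlations of 0.276, 0.125 and 0.105 in DKK1 and 0.487, 0.310 and 0.297 in WT mice; all are above 0.1, so the numbers were taken to pair the hemispheres, a pairing that comes from the data and not from the labels. Correlations between libraries of different number were not computed, so the limit of 0.1 has no reference and the pairing stays an assumption. Both fits are kept: the model without the block is the one reported, and with the replicate block 31 collagens passed in each lesion comparison. All 66 pairs of libraries differed by more than sampling noise (smallest chi-square per degree of freedom, 3.95).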

Additional observations from a re-analysis of the deposited data

How the results depend on the processing

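For 25 fold changes, those of the collagens named by their change, 520 recomputed values were compared: none changed direction, 502 kept their side of the threshold, 9 lost it and 9 gained it. The set was picked by size of change or by p and leaves out calls that were lost more often. In the WT lesion comparison it leaves out Col14a1, lost in 9 omissions of 1 library, Col9a2, lost in 7, and Col9a1, lost in 6. Of the 28 lesion calls, 24 in DKK1 mice and 20 in WT mice held in every omission. The set also leaves out Col14a1 between genotypes in the lesioned hemisphere, whose value of -0.09 was 1.61 without WT ipsilateral 1. The number that differed between genotypes in the lesioned hemisphere, 1 of 44, was 5 by DESeq2, 2 by limma-voom and 2 with the replicate block, and 0 to 14 over the omissions of 1 library. The number in the interaction, 0, was 0 to 4 over those omissions and 0 with the other tools. The number in the intact hemisphere was 0 under every alternative. The lesion counts of 28 stayed between 24 and 31 in DKK1 mice and between 20 and 31 in WT mice. With the replicate block all 28 calls of each lesion comparison were kept. Col4a3 and Col6a4 in both genotypes, Col9a1 in DKK1 mice and Col23a1 in WT mice were added. Between genotypes the block was fitted in limma-voom, where Col4a6 passed both with the block (adjusted p = 0.0296) and without it (0.0339). No other collagen call there differed from edgeR's. The cause of the changes with single libraries was not tested. The deposited TPM are in another unit than the levels here: their median ratio to the levels was 1.41 to 1.5 by library, and 41 or 42 of 44 collagens lay within 5% of it in each. The interaction has no fit of only the groups compared, since it needs all 4. Leaving out a library leaves 2 in its group. Depth limits Col10a1, Col6a6 and Col9a1, with at most 27, 57 and 73 counts in a library.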

Other observations

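Markers of glia were higher in the lesioned hemisphere. Of all genes 27.5% rose and 22.6% fell there in DKK1 mice, and 21.2% rose and 15.9% fell in WT mice. Of 8 astrocyte markers 6 rose and 1 fell in DKK1 mice and 5 rose in WT mice, led by Vim, an intermediate filament of reactive astrocytes that fibroblasts also make, at 2.42 ± 0.11 (SE), adjusted p = 7.23e-07 in DKK1 mice and 1.91 ± 0.11 (SE), adjusted p = 1.09e-05 in WT mice. In DKK1 mice 4 of them passed without DKK1 contralateral 3. Of 7 oligodendrocyte lineage markers all 7 rose in each genotype, among them the transcription factor Sox10, by 0.50 ± 0.07 (SE), adjusted p = 0.000160 in DKK1 mice and 0.50 ± 0.07 (SE), adjusted p = 0.000345 in WT mice. In DKK1 mice 4 rose without DKK1 ipsilateral 1 and 3 without DKK1 contralateral 2, and in WT mice 3 without WT ipsilateral 1 and 2 without WT contralateral 2. In these WT fits 25.2% and 26.7% of all genes passed. For the omissions in DKK1 mice, that of the astrocyte markers included, the share of all genes is not given here. A change in these markers cannot be told there from a change in all genes.

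Col11a2, on chromosome 17, lies in a stretch where many genes differed between genotypes. Of 239 genes tested within 5 Mb of its start, 23 (9.62%) passed in the intact and 33 (13.8%) in the lesioned hemisphere, against 0.88% and 2.37% of all genes. Around each of the other 43 collagens the share was at most 2.86% in the intact and 5.26% in the lesioned hemisphere. Col11a2 itself was 11.1, 9.82 and 9.58 in the DKK1 contralateral libraries, against 9.40, 8.13 and 7.25 in the WT contralateral libraries, without overlap, and its log2 fold change, DKK1 over WT, was 0.30 ± 0.13 (SE), adjusted p = 0.744 in the intact and 0.29 ± 0.13 (SE), adjusted p = 0.217 in the lesioned hemisphere, neither of which passed.

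Markers of the choroid plexus, another tissue rich in collagen, were detected in every group. The 8 genes summed to 207 to 474 CPM in DKK1 ipsilateral, against 133 to 218 CPM in DKK1 contralateral libraries, and to 244 to 459 CPM in WT ipsilateral, against 81.8 to 159 CPM in WT contralateral libraries. Of these 1 rose in DKK1 mice and 8 in WT mice, where 1 did without WT ipsilateral 1 and 3 without WT contralateral 2. Of all genes 27.5% rose in DKK1 and 21.2% in WT mice, and 25.2% and 26.7% passed in these omissions. In DKK1 mice 3 rose without DKK1 ipsilateral 1, 4 without DKK1 contralateral 2, and 2 without WT ipsilateral 3 or WT contralateral 2. Markers of bone and cartilage summed to 34.6 to 39.5 CPM in DKK1 ipsilateral, against 42.6 to 44.7 CPM in DKK1 contralateral libraries. They summed to 39.0 to 44.9 CPM in WT ipsilateral, against 44.3 to 48.4 CPM in WT contralateral libraries. Those of skeletal muscle summed to 18.6 to 23.0 CPM in DKK1 ipsilateral, against 17.1 to 24.5 CPM in DKK1 contralateral libraries. In WT mice the muscle sums were 14.2 to 15.2 CPM ipsilateral, against 16.9 to 18.8 CPM contralateral. Of 9 skeletal muscle markers tested, 2 rose in DKK1 mice and 1 in WT mice, and of 6 bone and cartilage markers 2 rose and 3 fell in DKK1 mice and 1 rose and 2 fell in WT mice. Of all genes 22.6% fell in DKK1 mice and 15.9% in WT mice. Over omissions of 1 library the bone and cartilage genes that passed numbered 2 to 5 in DKK1 mice, fewest without DKK1 ipsilateral 3, and 0 to 3 in WT mice, fewest without WT contralateral 2. The muscle genes that passed in WT mice numbered 3 without DKK1 contralateral 1. With the replicate block 3 passed there, 1 higher and 2 lower, where 45.3% of all genes did. The share of all genes is not given here for any omission in the DKK1 lesion comparison. Nor is it for leaving out a DKK1 library in the WT comparison. The part of these markers in the collagen values was not tested.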
